A study of Mus musculus with 4 samples.

Results

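Replication-dependent and other histone genes of the 4 mouse histone clusters were analyzed in 4 cell lines of mouse small cell lung cancer (SCLC). All gene symbols of the deposited table that start with Hist1h, Hist2h, Hist3h or Hist4h and go on with a histone type were taken, which gave 70 of 54641 gene symbols. The set contained 6 H1, 20 H2A, 19 H2B, 12 H3 and 13 H4 genes, of which 56 belonged to Hist1, 10 to Hist2, 3 to Hist3 and 1 to Hist4. All lines arose in mice on a C57BL/6 background with conditional alleles of Rb1 and Trp53, which adenoviral Cre given into the airways deletes, so that every line lacks both tumor suppressors by design. By the series' design, M1 was grown out from a metastasis in the liver (n = 1), whereas P1, P4 and P5 were grown out from tumors in the lung (n = 3), and the design text assigns each line to its own mouse. The deposited column names of P1 and P5 share a number of unstated meaning, so that a link between these lines cannot be told from the labels. Each line was grown untreated in RPMI with fetal serum and sequenced as 1 library, so that line, animal and library cannot be told apart. In the sample labels, however, the source is lung for every line, M1 included.

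Cluster histone genes encode the core histones H2A, H2B, H3 and H4, around which DNA is wound in the nucleosome, and the linker histone H1, which binds where DNA enters and leaves it. Most of them are transcribed during S phase from genes without introns, and their mRNAs end in a conserved stem-loop that is bound by SLBP, in place of a poly(A) tail. Replacement histones such as H3.3 and H2A.Z lie outside the clusters, are made throughout the cell cycle and carry poly(A) tails. Rb restrains entry into S phase, and its loss is a defining event of SCLC.

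The stem-loop is the feature by which histone mRNAs are known, and its sequences are shown for genes on which the results turn and for some of the less common forms. In GENCODE transcripts, 41 of 65 matched genes (63.1%) contained a run of 16 bases that starts with GG, ends with CC, pairs over 6 bases and holds a loop of 4 bases starting with TT. Such a run occurred in 0.332% of all 78045 GENCODE genes. The following stretches are given as DNA, 5′ to 3′, with the 16 bases of the stem-loop in capitals and 5 bases on either side in lower case.
Hist1h2ap: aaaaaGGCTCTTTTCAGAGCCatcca
Hist2h2aa1: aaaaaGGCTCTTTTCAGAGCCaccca
Hist1h1e: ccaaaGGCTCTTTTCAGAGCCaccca
Hist1h1c: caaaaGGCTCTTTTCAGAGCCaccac
Hist1h2bb: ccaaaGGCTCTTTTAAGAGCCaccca
Hist1h3f: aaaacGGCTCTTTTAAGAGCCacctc
Hist1h4d: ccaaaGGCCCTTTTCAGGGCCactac
Hist1h4i: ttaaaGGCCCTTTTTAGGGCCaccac
Hist1h4j: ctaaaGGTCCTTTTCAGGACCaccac
The form in Hist1h2ap, Hist2h2aa1, Hist1h1e and Hist1h1c was found in 24 genes. All 10 H4 genes with a stem-loop, among them Hist1h4d, Hist1h4i and Hist1h4j, carried forms that no gene of another type had. The other 24 matched genes had no such run in their annotated transcript, and 12 of them have transcripts that go at most 15 bases past the coding part.

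Promoters were available for 62 of the genes. The motif CCAAT, searched on both strands from 250 bases before to 50 bases after the start, was present in 85.5% of them, against 41.1% of 27025 genes. It was found in all 6 H1, 18 H2A, 16 H2B and 10 H3 promoters, but in 3 of 12 H4 promoters. The motif TATAAA, searched likewise, was present in 56.5% of the promoters of cluster histone genes and in 15.7% of all promoters. Promoters that are each shared by an H2A gene and an H2B gene facing away from it are shown for a pair of cases, because the levels of the partners differed widely. Capitals mark TATAAA and CCAAT, with CCAAT also as ATTGG, its complement read on the other strand.
Hist1h2ap, matched to H2ac24, chr13:21833426-21833725, minus strand, RefSeq GRCm38.p6: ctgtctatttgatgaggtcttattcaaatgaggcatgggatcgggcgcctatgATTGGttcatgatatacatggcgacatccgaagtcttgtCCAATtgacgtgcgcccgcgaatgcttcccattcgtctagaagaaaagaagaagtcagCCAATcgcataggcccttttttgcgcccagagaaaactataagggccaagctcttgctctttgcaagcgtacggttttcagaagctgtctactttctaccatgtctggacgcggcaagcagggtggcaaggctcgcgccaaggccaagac
Hist1h2ak, chr13:21753863-21754162, minus strand, RefSeq GRCm38.p6: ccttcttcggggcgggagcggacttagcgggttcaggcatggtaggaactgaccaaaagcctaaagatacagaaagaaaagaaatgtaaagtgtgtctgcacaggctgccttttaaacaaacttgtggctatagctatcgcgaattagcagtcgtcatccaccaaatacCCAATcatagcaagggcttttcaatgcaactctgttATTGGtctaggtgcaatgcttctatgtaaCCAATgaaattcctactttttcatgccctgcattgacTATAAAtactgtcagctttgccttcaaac
These matches are descriptions of the letters, not of bound sites.

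Gene detection was uneven across the libraries. At 11170276 reads assigned to genes in M1 and between 9527011 and 13890726 in the primary lines, 10074 gene symbols were above 0 in M1, against 17824 in P1, 7985 in P4 and 20578 in P5. P4 thus stood with M1 and apart from P1 and P5. A count of 3 reads corresponded to 0.269 CPM (counts per 1000000 assigned reads) in M1 and to between 0.216 and 0.315 CPM in the primary lines, which covers counting error only. The labels name a total RNA kit, whereas the study's methods name an mRNA kit that reads from the 3′ end. The 2 sources thus differ in whether mRNAs without poly(A) tails would have been captured.

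Cluster histone genes followed the same division. Of the 70 genes, 24 were above 0 in M1, compared to 51 in P1, 17 in P4 and 44 in P5. Above 0 in all 4 libraries were 12 genes, 20.7% of the 58 detected in any library, against 30.0% of 22479 gene symbols detected. Another 12 genes were listed at 0 everywhere, among them the testis genes Hist1h1t, Hist1h2aa and Hist1h2ba. The germ cell markers Ddx4, Dazl, Tnp1 and Prm1 were also at 0 in every library. A group of 19 genes (32.8%) was above 0 in P1 and P5 and at 0 in M1 and P4, a pattern shared by 26.6% of all detected gene symbols. Of the 40 cluster histone genes above 0 in both P1 and P5, 50.0% were at 0 in M1 and 67.5% in P4, whereas the same shares over all genes were 42.6% and 52.8%.

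Summed over the 70 genes, M1 contained 7953 CPM, against 2771 CPM in P1, 7247 CPM in P4 and 1192 CPM in P5. M1 was the highest, with 2.13 times the mean of the primary lines (3737 ± 3141 CPM, SD, n = 3), but the primary lines themselves spanned 6.08-fold, and P4 came close to M1. The sums are given without a test. Most of the sum belonged to 1 gene. Hist1h2ap, which encodes a canonical H2A, accounted for 89.3% of it in M1, 76.5% in P1, 92.0% in P4 and 59.3% in P5. Without Hist1h2ap, the sums were 852 CPM in M1, against 650.0 CPM in P1, 577 CPM in P4 and 485 CPM in P5. The spread of the primary lines then narrowed to 1.34-fold, and M1 was at 1.49 times their mean (571 ± 82.5 CPM). The range of the full sum across primary lines thus lay mostly in a single H2A gene.

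**Figure D1:**
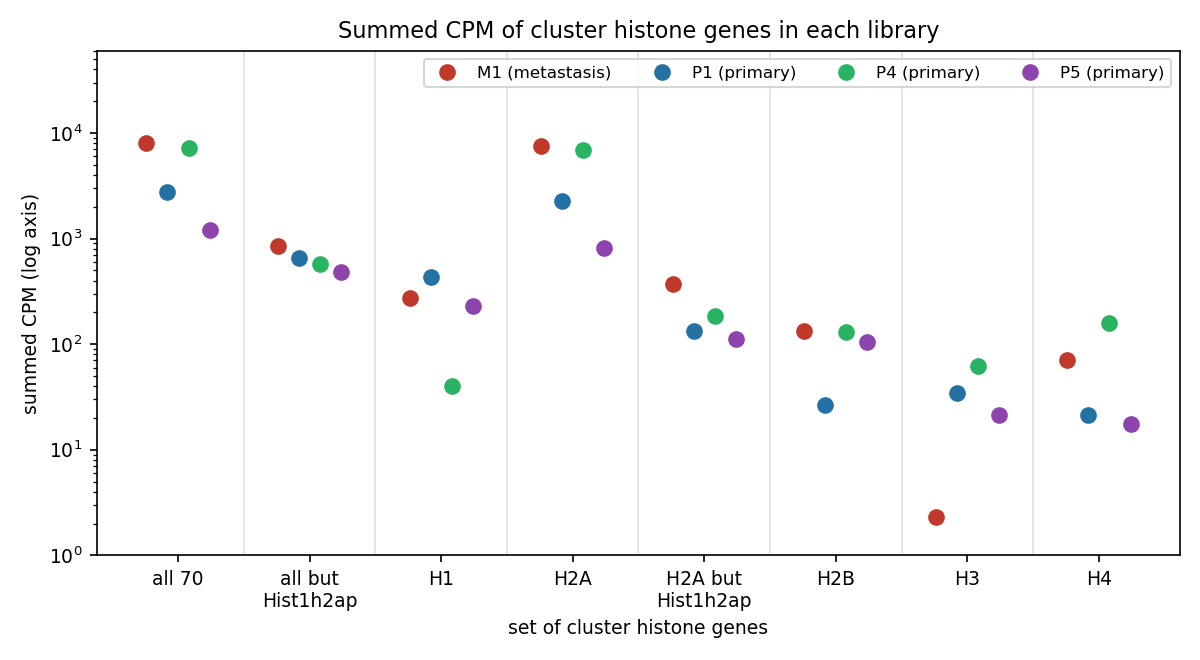
Summed CPM (log axis) of all 70 cluster histone genes, of all but Hist1h2ap, and of each histone type, with 1 point per library and M1 left of the primary lines P1, P4 and P5. M1 and P4 lie together at 7953 and 7247 CPM for the full set, the 4 libraries draw together once Hist1h2ap is left out, and M1 stands below every primary line for H3.

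Hist1h2ap had 7100 CPM in M1, against 2121 CPM in P1, 6670 CPM in P4 and 706 CPM in P5. It was the 7th most abundant gene of the M1 library and the 11th in P4, but the 47th in P1 and the 177th in P5. Per kilobase of coding sequence these levels were 18206 CPM in M1, and 5438 CPM (P1), 17103 CPM (P4) and 1811 CPM (P5). This scale leaves out transcript ends past the coding part. It would not suit a kit that reads from the 3′ end, as named in the study's methods. The next highest cluster histone gene on this scale reached 557 CPM in M1 (Hist2h2aa1), and 555 CPM in P1 (Hist1h1e), 338 CPM in P4 (Hist2h2aa1) and 258 CPM in P5 (Hist1h2bc). The log2 difference of M1 from the primary lines was 1.72 (SE 1.43; limma with Benjamini-Hochberg adjustment, adjusted p = 0.72). M1 was above every primary line, by little in the case of P4.

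The value of Hist1h2ap does not belong to 1 locus with certainty. Its symbol is a synonym of 2 RefSeq genes on chromosome 13 (GRCm38.p6), H2ac23 at chr13:21810367-21810918 and H2ac24 at chr13:21833024-21833475. Of all stretches of 50 bases in their transcripts, 93.5% and 93.1% occur in another gene as well. Hist1h2ao, the other symbol of H2ac23, was listed at 0 in every library. A family of 12 H2A genes, chained together where a gene shares at least 50% of its stretches with another member, summed to 7199 CPM in M1, and to 2176 CPM (P1), 6709 CPM (P4) and 731 CPM (P5). Hist1h2ap gave most of the family sum in every library, so that the order of the libraries was bound to be the same as for Hist1h2ap alone.

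Division of reads between copies was frequent in the whole set. Values of whole reads, within a tolerance of 0.001 reads, made up 50.0% of those above 0 in M1, and 17.6% in P1, 52.9% in P4 and 15.9% in P5. Over all gene symbols these shares were 89.0% in M1, and 79.0% (P1), 88.6% (P4) and 79.9% (P5). The median share of 50-base stretches found in another gene was 78.9% for H2A, 62.0% for H3, 51.7% for H2B and 41.4% for H4, but 1.13% for H1. Summed by type, M1 had whole numbers of reads for H1 (3070), H2B (1472), H3 (26) and H4 (786), and P4 had 553, 1818, 861 and 2209. The H2A sums were not whole, at 83479.58 reads in M1 and 95225.2 reads in P4. Among the other types, fractions occurred only in H2B of M1 (Hist1h2bb, Hist1h2bc and Hist1h2bq) and in H4 of P4 (Hist1h4d and Hist1h4i). There they added up to whole reads within the type. The remaining sums were whole gene by gene, so that they tell nothing about the division of reads.

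The H2A genes other than Hist1h2ap also had their highest sum in M1, but many of them belong to its family and share its stretches. This remaining sum was 373 CPM in M1, against 134 CPM (P1), 185 CPM (P4) and 111 CPM (P5) (143 ± 37.8 CPM, SD, n = 3). Hist2h2aa1 on chromosome 3 had 217 CPM in M1, against 26.3 CPM in P1, 132 CPM in P4 and 6.24 CPM in P5. Its copy Hist2h2aa2, which lies 5122 bases away and has all of its 50-base stretches in another gene, was at 0 in M1 and P4, with 16.2 CPM in P1 and 32.1 CPM in P5. Reads of this pair were thus listed under 1 copy in M1 and P4 and under both in P1 and P5. Hist1h2aj, annotated as a pseudogene, had 68.5 CPM in M1, against 25.1 CPM in P4 and 0 in P1 and P5, and every 50-base stretch of it occurs elsewhere. Hist3h2a, whose mRNA can be polyadenylated, had 18.2 CPM in M1, within the range of 6.61 CPM in P1, 13.5 CPM in P4 and 40.7 CPM in P5.

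The H1 genes, which share little sequence apart from Hist1h1e, behaved otherwise. Their sum of 275 CPM in M1 lay inside the primary range of 434 CPM in P1, 39.8 CPM in P4 and 230 CPM in P5, in which P1 exceeded P4 by 10.9-fold. Hist1h1e (H1.4) had 155 CPM in M1, against 365 CPM in P1, 5.98 CPM in P4 and 122 CPM in P5. Hist1h1c (H1.2), whose mRNA can be polyadenylated, had 92.3 CPM in M1, against 38.1 CPM (P1), 13.5 CPM (P4) and 83.2 CPM (P5). P4 was thus the lowest library for both, although it was second for the H2A sum. Hist1h1b (H1.5) had 9.13 CPM in M1, against 23.2 CPM (P1), 20.3 CPM (P4) and 17.4 CPM (P5). M1 was thus below each primary line (log2 difference -1.06, SE 0.79, limma adjusted p = 0.72). The replacement linker histone H1f0 had 303 CPM in M1, against 541 CPM (P1), 381 CPM (P4) and 165 CPM (P5).

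The H2B sum of 132 CPM in M1 was close to 131 CPM in P4 and 106 CPM in P5, with 26.7 CPM in P1. Hist1h2bc accounted for most of it in the primary lines, with 58.6 CPM in M1, against 14.4 CPM in P1, 125 CPM in P4 and 97.7 CPM in P5. In M1, 3 genes that were near 0 elsewhere gave more reads together than Hist1h2bc. Hist1h2be had 30.2 CPM in M1, against 2.00 CPM (P1), 0 CPM (P4) and 1.95 CPM (P5). Hist1h2bb had 23.7 CPM in M1, against 0.29 CPM in P1 and 0 in P4 and P5. Hist1h2bf had 19.1 CPM in M1, against 0.34 CPM (P1), 0 CPM (P4) and 0.30 CPM (P5). Hist1h2bc was thus the highest H2B gene in both M1 and P4, but other genes added much to the sum only in M1. Hist1h2be and Hist1h2bf, but not Hist1h2bb, belong to a family of similar H2B genes with Hist1h2bc. This family summed to 108 CPM in M1, against 19.0 CPM (P1), 125 CPM (P4) and 101 CPM (P5). Whether reads of Hist1h2bc were listed under other copies in M1 was not tested.

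H3 was the only type in which M1 lay below every primary line. The 12 H3 genes summed to 2.33 CPM in M1, against 34.4 CPM in P1, 62.0 CPM in P4 and 21.4 CPM in P5, so that the mean of the primary lines was 16.9 times the M1 value. The M1 sum consisted of 26 reads, all from Hist1h3a. In the primary lines it came from different genes. Hist1h3d was at 0 in M1 and in P4, with 29.4 CPM in P1 and 13.6 CPM in P5. Hist1h3f was at 0 in M1 and in P1, with 52.7 CPM in P4 and 0.22 CPM in P5. No tested H3 gene passed the threshold (smallest adjusted p = 0.53, limma), and 5 of the 6 tested were listed at 0 in M1.

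For H4, the highest library was P4. The sum was 70.4 CPM in M1, against 21.2 CPM in P1, 159 CPM in P4 and 17.4 CPM in P5, and without P4 the log2 ratio of M1 to the primary mean moved to 1.86, compared to 0.09 with it. Hist1h4d had 22.7 CPM in M1, against 8.50 CPM (P1), 82.3 CPM (P4) and 1.65 CPM (P5). Hist1h4i had 30.5 CPM in M1, against 3.88 CPM (P1), 76.0 CPM (P4) and 5.97 CPM (P5). Both genes followed the order P4, M1 and then the other lines. Hist1h4k had 17.1 CPM in M1 and was listed at 0 in the 3 primary lines, the only gene of the set with that pattern. It made up 1.72% of the 58 cluster histone genes detected, and 1.13% of 22479 gene symbols detected had the same pattern. Of the stretches of its transcript, 71.5% occur in another gene as well. Its family of 6 similar H4 genes summed to 17.1 CPM in M1, against 2.93 CPM (P1), 0 CPM (P4) and 4.00 CPM (P5). Whether reads of Hist1h4k were listed under other copies in the primary lines was not tested.

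**Figure D2:**
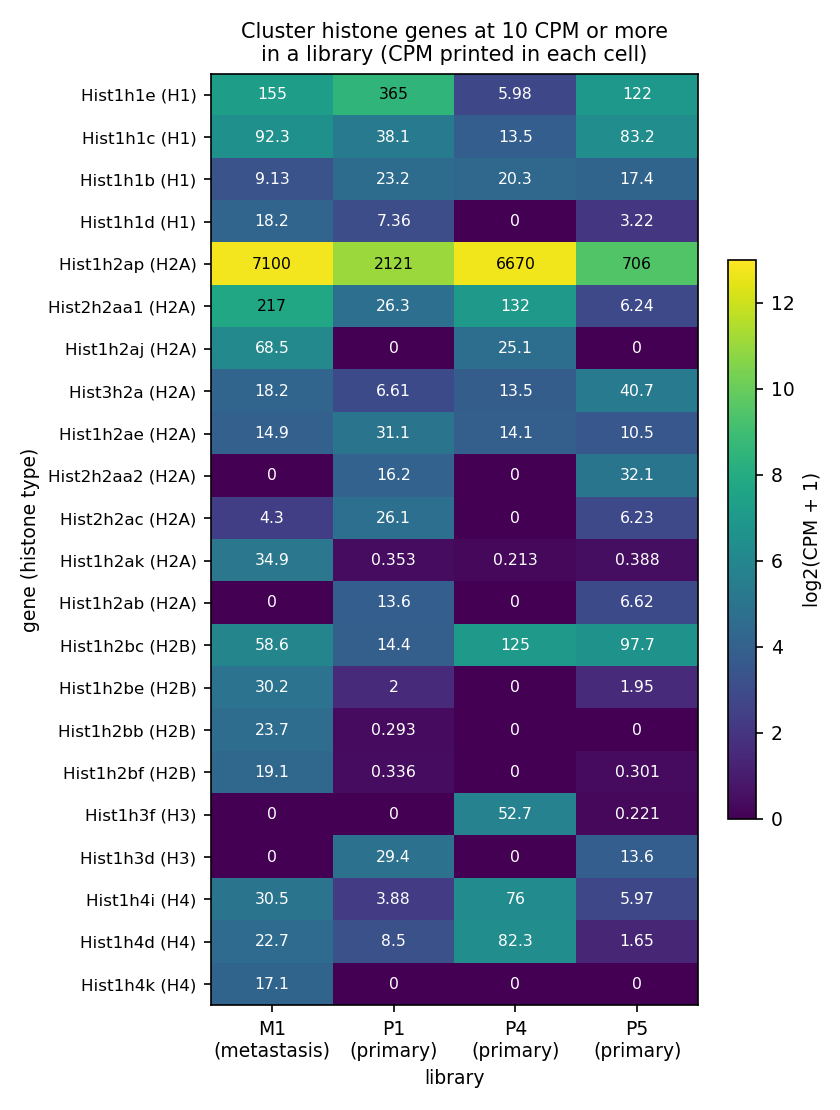
CPM of the 22 cluster histone genes that reached 10 CPM in a library, with 1 column per library (M1 first, then P1, P4 and P5), genes grouped by type and color on a log2(CPM + 1) scale. M1 holds the highest value of 10 genes, Hist1h2ap exceeds all others in every library, and most other genes change their order from library to library.

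To ask whether M1 lay outside the spread of the primary lines, genes with at least 1 CPM in a library were tested on log2(CPM + 1) with limma, which covered 37 of the 70 genes. None passed the adjusted threshold of 0.05 (0 of 37), as was the case for all 14888 genes tested (0%), and the smallest adjusted p was 0.30. At an unadjusted p under 0.05, 4 genes were higher in M1 and 0 were lower, against 4.53% of all genes higher and 5.15% lower. These 4 genes were Hist1h2ak, Hist1h2bb, Hist1h2bf and Hist1h4k. Each of them was under 1 CPM in every primary line, so that it entered the test only because it was high in M1 and its direction was fixed by the filter. Besides them, Hist1h2ad and Hist1h3a had entered in this way. A primary line reached 1 CPM for the other 31 tested members, and 0 of these had an unadjusted p under 0.05, compared to 956 of 14373 genes under the same condition. The median log2 difference was 0.05 over the 37 genes and -0.53 over all genes. Over the 31 genes it was -0.53, against -0.58 over all genes with the same condition. Of all genes tested, 5058 were listed at 0 in M1, and the median was -0.054 over the 8261 with a mean of at least 10 CPM.

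M1 was above every primary line for 14 of the 37 genes (37.8%) and below every one for 3 (8.11%), against 22% and 20.7% of all genes tested. Of the 14 genes, 6 had entered through M1 alone. The other 8 of 31 (25.8%, against 19.2% of all genes with at least 1 CPM in a primary line) were Hist1h1c, Hist1h1d, Hist1h2ac, Hist1h2ag, Hist1h2aj, Hist1h2ap, Hist1h2be and Hist2h2aa1. The 3 genes below were Hist1h1b, Hist1h2al and Hist2h2be. By type, M1 was above every primary line for 2 of 5 tested H1, 7 of 14 H2A and 3 of 6 H2B genes. For H3 and for H4 this held for 1 of 6 genes each. Counted here are 2 H2A, 2 H2B, 1 H3 and 1 H4 genes that no primary line carried past the filter. For such genes no other outcome was possible, so the H3 and H4 counts tell nothing about M1. Genes with shared reads are not independent of each other, and these counts are given as descriptions.

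**Figure D3:**
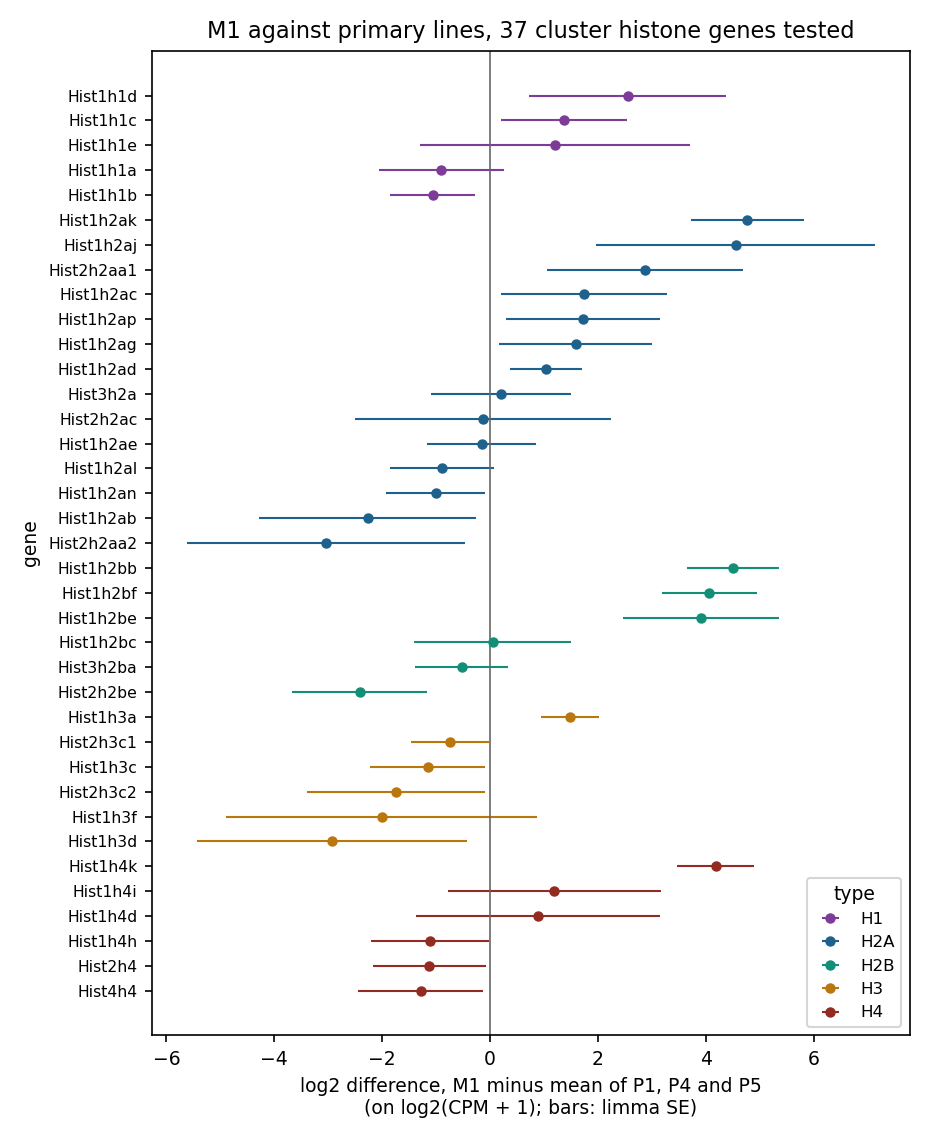
Log2 difference of M1 from the mean of P1, P4 and P5 for the 37 cluster histone genes tested, by histone type, with bars for the limma standard error on the log2(CPM + 1) scale. Positive values are higher in M1, the 5 H3 genes other than Hist1h3a lie below 0, and the short bars at values over 4 belong to genes under 1 CPM in every primary line.

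Of the 4 genes at an unadjusted p under 0.05, Hist1h2ak had 34.9 CPM in M1, against 0.35 CPM (P1), 0.21 CPM (P4) and 0.39 CPM (P5) (log2 difference 4.77, SE 1.05, adjusted p = 0.32, limma). The differences were 4.50 (SE 0.86, adjusted p = 0.30) for Hist1h2bb, 4.06 (SE 0.88, adjusted p = 0.31) for Hist1h2bf and 4.18 (SE 0.72, adjusted p = 0.30) for Hist1h4k. Hist1h4k and Hist1h2ak are neighbors on chromosome 13, with 2823 bases and no other gene of the set between them. Genes of the set often lie close together, and Hist1h2bb and Hist1h2bf lie in another part of this chromosome. Immune cell markers were also higher in M1. Of 9 such markers, 6 were above 0 in M1 and summed to 153 CPM, against 4.72 CPM in P1, 0.072 CPM in P4 and 3.04 CPM in P5, with Lyz2 at 47.4 CPM in M1, whereas Ptprc, Cd3e and Cd79a were at 0 in M1. Their part in the histone values was not tested. The 4 endothelial and 4 hepatocyte markers were at 0 in M1, and summed to at most 13.5 CPM and 1.56 CPM in a primary line.

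H2A and H2B genes are often arranged head to head, with 1 promoter region between them. In RefSeq, 10 such pairs had overlapping promoters, with 164 to 281 bases between the starts. In M1, 4 pairs combined a partner of at least 10 CPM with one under 2 CPM, as did 2 pairs in each primary line. Hist1h2ap had 7100 CPM in M1, whereas Hist1h2br, across from it, was at 0 in M1 and P4 and at 0.34 and 0.26 CPM in P1 and P5. Hist1h2bq, the partner of the other locus of Hist1h2ap, had 0.20 CPM in M1, and 0.24 CPM (P1), 0 CPM (P4) and 0.23 CPM (P5). Neither H2B partner came near the level of the H2A gene. Hist1h2ae had 14.9 CPM in M1, against 31.1 CPM (P1), 14.1 CPM (P4) and 10.5 CPM (P5), and its partner Hist1h2bg was at 0 in M1, P4 and P5 and at 0.68 CPM in P1. Hist1h2ak, at 34.9 CPM in M1, faced Hist1h2bn, which was at 0 in all libraries. In Hist1h2bf and Hist1h2ad the H2B gene was the higher one in M1, with 19.1 and 1.56 CPM. In these pairs, partners of a shared promoter region were thus listed at unlike levels.

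The annotated length of a transcript past its stem-loop varied from 3 to 4884 bases. Of the 19 genes whose transcript ran on for at least 100 bases, 9 reached 10 CPM in a library, among them Hist1h1c, Hist1h1e, Hist1h4d, Hist1h4i and Hist1h3f. Of the 22 genes with a shorter end, 7 did so, among them Hist1h2ap, Hist2h2aa1, Hist1h2bb and Hist1h2bf. The median of the highest CPM per gene was 9.29 in the longer group and 1.94 in the shorter one. Their median transcript lengths were 1249 and 480 bases, so that the longer transcripts also offer more sequence to be read. Of the 24 genes with no stem-loop in the annotation, 5 reached 10 CPM. The limit of 100 bases was chosen after the values were seen. Of the 6 genes listed as sources of polyadenylated mRNA, all were tested, with M1 above every primary line for 2 (33.3%) and below for 1 (16.7%), against 22% and 20.7% of all genes tested. They summed to 177 CPM in M1, against 70.6 CPM (P1), 158 CPM (P4) and 231 CPM (P5). For 2 of them M1 was listed at 0, as Hist2h2be had 0 CPM in M1, against 5.98 CPM (P1), 5.54 CPM (P4) and 2.34 CPM (P5), and Hist4h4 had 0 CPM in M1 and P4, 3.25 CPM in P1 and 2.43 CPM in P5. Hist1h2ac had 7.65 CPM in M1, against 2.32 CPM (P1), 0 CPM (P4) and 4.20 CPM (P5).

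**Figure D4:**
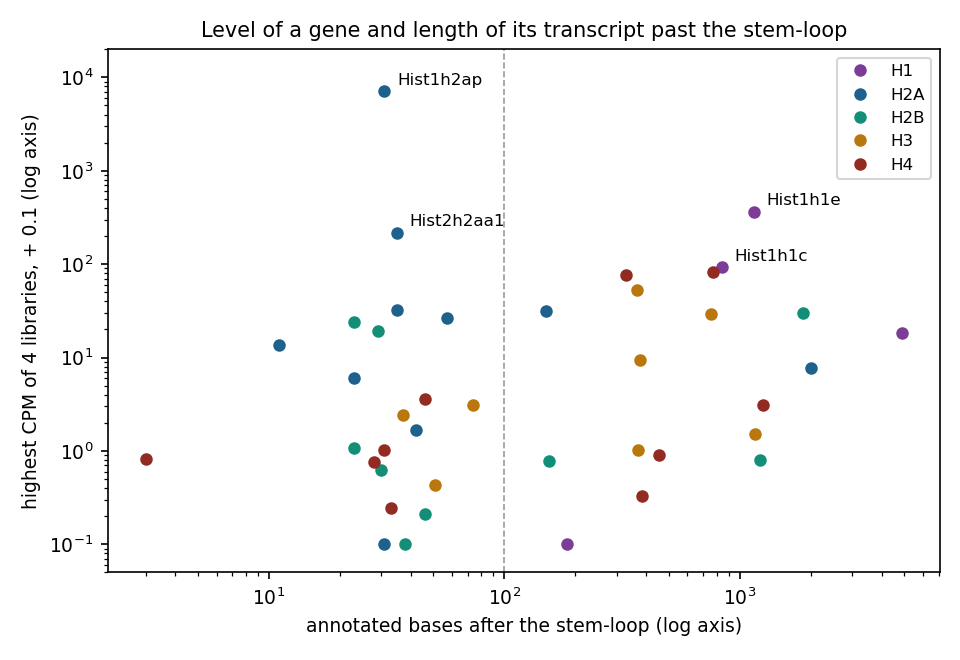
Highest CPM of the 4 libraries (plus 0.1, log axis) against the annotated number of bases after the stem-loop (log axis) for the cluster histone genes with a stem-loop, colored by type, with a dashed line at 100 bases. Hist1h2ap and Hist2h2aa1 stand out among short ends, and genes at or above 10 CPM occur on both sides of the line.

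By position, the genes lay in 8 blocks in GRCm38.p6, split at gaps over 150 kilobases, on chromosomes 3, 6, 11 and 13. The largest block, chr13:23531044-23764412, held 29 genes and 446 CPM in M1, against 522 CPM (P1), 294 CPM (P4) and 357 CPM (P5). The block of 19 genes at chr13:21715711-21837530 contained Hist1h2ap. Without that gene it held 130 CPM in M1, against 28.5 CPM (P1), 46.3 CPM (P4) and 20.6 CPM (P5). The Hist2 block at chr3:96219885-96270192, with 10 genes, held 221 CPM in M1, against 77.4 CPM (P1), 147 CPM (P4) and 54.0 CPM (P5). Of these 3 blocks, the libraries differed least in the largest, in which the H1 genes Hist1h1c and Hist1h1e lie.

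Replacement histones were abundant in every line. H3f3b, which encodes H3.3, had 1875 CPM in M1, against 963 CPM (P1), 2066 CPM (P4) and 695 CPM (P5). H3f3a, which encodes the same protein, had 237 CPM in M1, against 302 CPM (P1), 71.4 CPM (P4) and 425 CPM (P5). By reads, cluster genes gave 0.106% of the H3 reads of cluster and replacement genes in M1, and 2.48% (P1), 2.70% (P4) and 1.76% (P5). For H2A the same share was 70.1% in M1, and 52.8% (P1), 73.3% (P4) and 35.4% (P5). M1 thus had the smallest cluster share of the 4 libraries for H3 and the second highest for H2A. H2afz, which encodes H2A.Z, had 2220 CPM in M1, against 1382 CPM (P1), 1921 CPM (P4) and 878 CPM (P5). H2afx, the source of the DNA damage mark gamma-H2AX, had 126.5 CPM in M1, against 44.7 CPM (P1), 31.1 CPM (P4) and 41.0 CPM (P5) (log2 difference 1.69, SE 0.52, unadjusted p = 0.032, adjusted p = 0.44, limma). Cenpa, the histone H3 of centromeres, had 79.5 CPM in M1, against 90.9 CPM (P1), 94.7 CPM (P4) and 75.0 CPM (P5). Of the 11 replacement histones, 0 passed the adjusted threshold. M1 was above every primary line for 5 of them and below for 0, against 22% and 20.7% of all genes tested. Their median log2 difference was 0.74, against -0.53 over all genes and -0.054 over those with a mean of at least 10 CPM.

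Genes that make and mature histone mRNA were mixed. Slbp, which encodes the stem-loop binding protein, had 109 CPM in M1, against 51.4 CPM (P1), 94.0 CPM (P4) and 52.2 CPM (P5). M1 and P4 were thus above P1 and P5, as for Hist1h2ap, but also as for H2afz and H3f3b. Npat, the transcriptional coactivator of histone genes, had 0.54 CPM in M1, against 54.6 CPM (P1), 67.9 CPM (P4) and 52.3 CPM (P5) (log2 difference -5.26, SE 0.68, unadjusted p = 0.0017, adjusted p = 0.30, limma). The M1 value exceeded that of 3 reads, and the primary lines lay close together. Upf1, a helicase needed for the decay of histone mRNA, had 9.31 CPM in M1, against 96.6 CPM (P1), 44.8 CPM (P4) and 61.9 CPM (P5) (unadjusted p = 0.019). Ncbp2, a subunit of the cap binding complex, had 19.6 CPM in M1, against 57.0 CPM (P1), 60.5 CPM (P4) and 76.3 CPM (P5) (unadjusted p = 0.034, limma). Of 15 tested genes of this list, 0 passed the adjusted threshold, 3 were lower in M1 at an unadjusted p under 0.05 and 0 were higher, against 5.15% and 4.53% of all genes tested. M1 was above every primary line for 4 of them (26.7%) and below for 5 (33.3%), against 22% and 20.7% of all genes tested.

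Histone chaperones and S phase genes were then examined. The 26 chaperone genes had a median log2 difference of -0.07, against -0.53 over all genes tested and -0.054 over those with a mean of at least 10 CPM. M1 was above every primary line for 5 of the chaperone genes (19.2%) and below for 10 (38.5%), against 22% and 20.7% of all genes tested. Chaf1b, a subunit of chromatin assembly factor 1, was listed at 0 in M1, against 29.3 CPM (P1), 9.93 CPM (P4) and 25.6 CPM (P5), and Tonsl, which reads new histones behind the replication fork, was at 0 in M1, against 23.9 CPM (P1), 44.7 CPM (P4) and 10.5 CPM (P5). Chaf1a had 19.3 CPM in M1, within 69.7 CPM (P1), 4.04 CPM (P4) and 26.7 CPM (P5). Nasp, a chaperone of H3 and H4, had 181 CPM in M1, against 244 CPM (P1), 363 CPM (P4) and 163 CPM (P5). Asf1b had 21.6 CPM in M1, against 49.6 CPM (P1), 60.0 CPM (P4) and 21.6 CPM (P5). M1 lay inside the primary range for Chaf1a and Nasp and level with P5 for Asf1b. Of 28 S phase genes, 0 passed the adjusted threshold, 14 were higher and 14 lower in M1 than the primary mean, and the median was 0.00. M1 was above every primary line for 9 of the S phase genes (32.1%) and below for 6 (21.4%). Pcna had 208 CPM in M1, against 194 CPM (P1), 487 CPM (P4) and 105 CPM (P5). Mcm3, a subunit of the replicative helicase, was lower in M1 than in each primary line (37.3 CPM, against 306 CPM (P1), 127 CPM (P4) and 133 CPM (P5)), and Ccne2, a cyclin of S phase entry, was higher (140 CPM, against 54.5, 58.0 and 55.0 CPM). The unadjusted p was 0.039 for both (limma).

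Other RNAs without poly(A) tails were measured unevenly. Of 20 such genes, 8 were above 0 in M1, and 13 (P1), 3 (P4) and 12 (P5). Rn7sk had 183 CPM in M1, against 1.97 CPM (P1), 0 CPM (P4) and 4.64 CPM (P5) (log2 difference 6.17, unadjusted p = 0.020, adjusted p = 0.36, limma). Snord118 had 29.2 CPM in M1 and 0 in the primary lines, and Rnu11 had 2.95 CPM in M1, against 0 CPM (P1), 0 CPM (P4) and 0.17 CPM (P5). Rmrp was above 0 only in P5 (0.43 CPM) and Rpph1 only in P1 (0.31 CPM), although both are known as abundant noncoding RNAs. The sum over the 20 genes was 356 CPM in M1, and 61.3 CPM (P1), 105 CPM (P4) and 27.6 CPM (P5). Most of the P4 sum came from Rny1, which had 46.9 CPM in M1, against 4.30 CPM (P1), 85.6 CPM (P4) and 1.04 CPM (P5). Whether the recovery of RNAs without poly(A) tails differed between libraries was not tested.

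Identity markers differed between the lines as well. Of 8 neuroendocrine markers, 5 were above 0 in M1, and 2 (P1), 1 (P4) and 8 (P5), with Ncam1 detected in all of them. The 8 epithelial markers summed to 814 CPM in M1, against 3130 CPM (P1), 865 CPM (P4) and 164 CPM (P5). The 8 fibroblast markers summed to 38.5 CPM in M1, and to 115 CPM (P1), 33.7 CPM (P4) and 1099 CPM (P5). In bulk samples, fewer cells of a type and less RNA per cell cannot be told apart.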

How the data were processed

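RNA sequencing covered 4 untreated lines at 1 library each. CPM values deposited by the authors filled 54838 rows and summed to 1000000 per library. The submitters' processing notes give mm10 as the build. A counting tool was not found in the labels or methods. Values above 0 were steps of a fraction of a read, so that the deposited CPM came from estimated counts in which reads had been divided between genes, and no count model was fitted. The 85 rows without a symbol, at most 0.0130% of a library, were left out, and rows sharing a symbol were summed.

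For the test, log2(CPM + 1) of genes that reached 1 CPM in a library was fitted in limma 3.58.1 (R 4.3.3) by lmFit and eBayes with a trend. Tests were two-sided, p-values were adjusted over 14888 genes by Benjamini-Hochberg, and the threshold was 0.05. Changes of low genes are understated on this scale. With 1 line on one side, only the 3 primary lines supplied the spread, and the p-values concern this M1 line, not metastases in general. The script was tested on simulated data. Alternatives were pseudocounts of 0.1 and 5, no filter, a mean of at least 10 CPM, median-ratio scaling, and leaving out each primary line. Another was a library term pairing P1 with P5 and P4 with M1. No label or column name groups P4 with M1, and the term follows the same division as the numbers of genes above 0.

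Members were named if they reached 50 CPM in a library, led their histone type, reached an unadjusted p under 0.05 or were listed as polyadenylated or testis genes, and companion genes by p or as fixed anchors; the others named were chosen after their values were seen. The members and lists were chosen with earlier results of these data known. Symbols were matched through RefSeq synonyms (GRCm38.p6). Transcripts came from GENCODE vM39, of which no coordinates were used.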

Additional observations from a re-analysis of the deposited data

How the results depend on the processing

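No paired analysis was possible because M1 is a single line and the groups share fewer than 2 replicate numbers. No cluster histone gene passed the adjusted threshold under any alternative run. The count at an unadjusted p under 0.05 was 4, and became 2 with a pseudocount of 0.1, 0 with a mean of at least 10 CPM, 10 with the library term (which compares M1 with P4 and calls 4899 of all genes), and between 0 and 12 when a primary line was left out. It was 0 without P1 or without P5 and 12 without P4, where 5252 of all genes were called. The count of genes above every primary line was 14, became 4 with a mean of at least 10 CPM, which left 14 genes, and ranged from 15 to 16 with a line left out. The count below every primary line was 3, became 1 with that filter, 8 with the library term and between 3 and 14 with a line left out, the highest without P4. The median log2 difference was 0.05, became 0.55 with that filter (against -0.054 over all genes) and ranged from -0.083 without P4 to 0.57 without P5.

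The log2 ratio of the summed CPM was 1.09. It was 0.58 without Hist1h2ap and without each primary line in turn it ranged from 0.67 to 2.00. Over the 8 genes with whole reads in every library it was -0.23, and over those of a single type it was -1.25 for H1 and 2.22 for H4, against 0.23 and 0.09 over all genes of the type. The alternatives without Hist1h2ap and with sums of M1 against P4 alone were chosen after seeing the data. The H1 ratio became 2.79 against P4 alone. With a line left out, the log2 ratio of a type's sum ranged from -0.27 to 1.03 for H1, from 0.71 to 2.28 for H2A, from 0.16 to 0.99 for H2B, from -4.37 to -3.59 for H3 and from -0.36 to 1.86 for H4.

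Of 34 named genes, 24 kept their direction under every alternative in which they were tested. Hist1h2ak, Hist1h2bb, Hist1h2bf, Hist1h4k, Rnu11 and Snord118 were not tested at a mean of at least 10 CPM, and Hist1h3f was not tested without P4. The sign turned for Hist1h2bc (-0.0030 with a pseudocount of 5), and with the library term for Hist1h2bc (-1.08), Hist1h4d (-1.81), Hist1h4i (-1.29), H3f3b (-0.14) and Chaf1a (2.01). With median-ratio scaling it turned for H1f0 (0.037), Cenpa (0.014), Chaf1a (0.054) and Pcna (0.088). With a line left out, the log2 difference ranged from -0.91 to 0.61 for Hist1h2bc, from -0.44 to 2.42 for Hist1h1e, from -0.24 to 2.24 for Hist1h4d, from -0.58 to 0.27 for H1f0, from -0.59 to 0.68 for H3f3a, from -1.12 to 0.78 for Chaf1a and from -0.56 to 0.54 for Pcna. None of these genes was past the threshold, and the cause was not tested. With 1 library per line, depth and division of reads between copies limit the values of single genes.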
